A study of Mus musculus with 9 samples.

Results

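The circadian clock genes followed here are the 10 genes Arntl (also called Bmal1), Clock, Per1, Per2, Per3, Cry1, Cry2, Nr1d1, Dbp and Tef. They were taken by symbol from a table of 56691 mouse genes, and all 10 were among the 18379 genes with enough counts to be tested. RNA was sequenced from primary mouse hepatocytes, the main metabolic cells of the liver, in 9 libraries. The cells attached for 4 h, then had new medium for 24 h. There were 3 libraries from cells given DMSO, the solvent, 3 from cells given Bobcat339, an inhibitor of the TET enzymes that oxidise methylated cytosine in DNA, and 3 from cells given 4-octyl itaconate (4OI), an ester that brings the metabolite itaconate into cells. Neither dose nor duration of treatment is given in the sources used here, nor are strain, age and the hour of day at which cells were isolated or lysed. Remodelin hydrobromide, which inhibits the acetyltransferase NAT10, is also named in the protocol as given or not, with no label tying it to a library. The titles of all 3 4OI libraries carry hepatocyte number 1, whereas those of the DMSO libraries carry 1, 2 and 3. No label says whether replicates were separate animals or separate dishes, and the tests therefore speak for the spread among these 9 libraries alone.

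The mammalian clock is a loop of transcription and translation. ARNTL and CLOCK form a dimer that binds E-boxes and drives the Per and Cry genes, whose proteins gather in the cytoplasm, return to the nucleus and shut the dimer down. In a second loop the nuclear receptor NR1D1 (REV-ERB alpha), itself an E-box target, represses Arntl through ROR elements. DBP and TEF, from the PAR bZIP family, bind D-boxes and carry the rhythm to genes of liver metabolism. In liver these genes oscillate over the day, so that a single time of lysis samples each at 1 phase only.

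The promoter elements that define these roles were sought in RefSeq promoters of build GRCm38.p6, from 250 bases before to 50 bases after each listed start, 300 bases in all. Of the 10 genes 9 were matched, with 14 starts, and Per2 was not among them. Both strands were searched for the E-box CACGTG, the E-prime box CACGTT, the D-boxes TTATGTAA and TTACGTAA, the ROR element core AGGTCA and the cAMP response element TGACGTCA. The lines below show, 5′ to 3′ on the strand of the gene, the 250 bases before the start, and for Arntl 30 bases after it, with matches in capitals. They are shown so that the elements can be read beside the values of genes that moved in different ways (Per1, Per3, Cry1, Nr1d1 and Arntl) and of Tef, which did not pass a test. AACGTG is CACGTT on the other strand, and TGACCT is AGGTCA on the other strand.
Cry1 (E-prime box, then E-box, chr10:85185055-85185304, minus strand): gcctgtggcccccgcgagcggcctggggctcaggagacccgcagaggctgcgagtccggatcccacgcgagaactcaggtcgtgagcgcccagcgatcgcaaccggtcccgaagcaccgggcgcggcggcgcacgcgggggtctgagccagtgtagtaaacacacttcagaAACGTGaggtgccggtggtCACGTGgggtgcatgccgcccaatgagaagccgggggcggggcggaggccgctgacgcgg
Per1 (E-box, then ROR element core, chr11:69098699-69098948, plus strand): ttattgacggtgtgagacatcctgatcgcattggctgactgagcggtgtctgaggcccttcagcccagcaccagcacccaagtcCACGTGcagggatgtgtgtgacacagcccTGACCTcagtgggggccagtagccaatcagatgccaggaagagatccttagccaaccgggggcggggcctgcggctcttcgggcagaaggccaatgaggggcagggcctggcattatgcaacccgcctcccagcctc
Tef (E-box, chr15:81802423-81802672, plus strand): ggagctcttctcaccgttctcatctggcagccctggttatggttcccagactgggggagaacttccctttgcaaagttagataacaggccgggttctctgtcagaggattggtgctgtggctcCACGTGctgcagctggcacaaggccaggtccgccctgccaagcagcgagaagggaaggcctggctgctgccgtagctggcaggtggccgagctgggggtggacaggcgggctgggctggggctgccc
Nr1d1 (E-prime box, chr11:98775378-98775627, minus strand): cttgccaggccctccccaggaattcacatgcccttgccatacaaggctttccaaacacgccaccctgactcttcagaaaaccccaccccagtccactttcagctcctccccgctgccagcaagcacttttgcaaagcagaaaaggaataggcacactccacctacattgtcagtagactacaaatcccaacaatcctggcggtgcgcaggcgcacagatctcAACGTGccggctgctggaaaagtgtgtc
Per3 (2 D-boxes, chr4:151044666-151044915, minus strand): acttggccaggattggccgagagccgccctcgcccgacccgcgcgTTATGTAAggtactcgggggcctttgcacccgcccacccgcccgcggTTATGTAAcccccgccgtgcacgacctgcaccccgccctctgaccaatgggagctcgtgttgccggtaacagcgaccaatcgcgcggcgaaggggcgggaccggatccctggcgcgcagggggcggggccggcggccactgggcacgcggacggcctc
Arntl (ROR element core, after the start, chr7:113207530-113207559, plus strand): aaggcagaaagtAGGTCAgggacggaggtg

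The Cry1 promoter held an E-box 60 bases and an E-prime box 79 bases before the start. The Per1 E-box stood 166 bases before the start and its ROR core 137, and the Tef E-box 127 (138 at the second Tef start). The E-prime box of Nr1d1 lay 28 bases before the start, that of Cry2 166, and the D-boxes of Per3 lay 205 and 158 bases before it. An AGGTCA was 32 bases after a start of Arntl and 119 bases before a start of Clock, and no letters searched were found in the Dbp window. Of 32544 promoters of the same length, 7.17% held CACGTG, 4.71% CACGTT, 0.931% TTATGTAA, 0.12% TTACGTAA, 16.2% AGGTCA and 1.8% TGACGTCA. A match is a description of the sequence and shows no binding.

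Total counts ran from 67434312 to 83902788 per library, and about 4 deposited counts were assumed to be 1 read pair. Hepatocyte markers were present in every library, but their level set the groups apart. Summed over 8 markers it was 29932 to 31003 CPM (counts scaled to a common library size) with DMSO, 27008 to 29218 with Bobcat339 and 1799 to 1981 with 4OI. The 8 macrophage markers summed to 576 to 653, 293 to 330 and 4680 to 4871 CPM in the same order, and the 8 endothelial markers to 115 to 128, 103 to 121 and 3317 to 3484. None of these markers was at 0 in any group. The 8 stellate cell markers summed to 29.2 to 30.3, 23.4 to 24.4 and 182 to 190 CPM, the 6 duct markers to 118 to 129, 109 to 146 and 33.1 to 37.1, and the 8 lymphocyte and neutrophil markers to 2.07 to 2.30, 0.387 to 0.535 and 12.6 to 15.2. With 4OI all 8 hepatocyte markers were lower and all 8 macrophage and all 8 endothelial markers higher than with DMSO, and in the 4OI libraries the summed macrophage and the summed endothelial markers each exceeded the summed hepatocyte markers, which goes against a label of hepatocytes alone. With Bobcat339, 7 of the 8 macrophage markers, 3 endothelial and 1 hepatocyte marker were lower, and none of these lists had a higher member. Over all genes tested, 33.3% were called higher and 30.4% lower with 4OI, and 11.6% and 9.06% with Bobcat339. Bobcat339 replicate 1 stood apart from its group in the duct marker Krt19, chosen after its values were seen, at 16.1 CPM against 2.10 and 1.87, where DMSO had 18.4 to 20.3. In bulk RNA fewer cells of a type and less RNA per cell cannot be told apart, and the part of these shifts in the clock gene results was not tested.

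Per kb of exon, to allow a comparison between genes, Tef had the highest mean level of the 10 in DMSO cells at 10.8 CPM per kb. It was followed by Nr1d1 at 8.45, Cry1 at 6.96, Cry2 at 5.35, Per1 at 4.78, Clock at 4.02, Per2 at 2.47, Arntl at 1.18, Dbp at 0.947 and Per3 at 0.706. Only the neighbours Cry2 and Per1, and Per1 and Clock, overlapped between libraries. The length used was that of all annotated exons of a gene merged. It was 7867 bases for Tef, whose longest transcript has 4403, and 3340 for Cry1, whose longest has 3026. The order between genes can therefore depend on the length chosen, and other lengths were not tried. By this measure the order changed with each compound. With Bobcat339, Cry1 came first at 13.6 CPM per kb and Nr1d1, Per1 and Tef followed at 11.5, 10.6 and 9.37, with overlap between neighbours among these 3. With 4OI, Nr1d1 led at 27.4 CPM per kb, ahead of Tef at 10.6, and Per3 stayed last in every group.

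**Figure D1:**
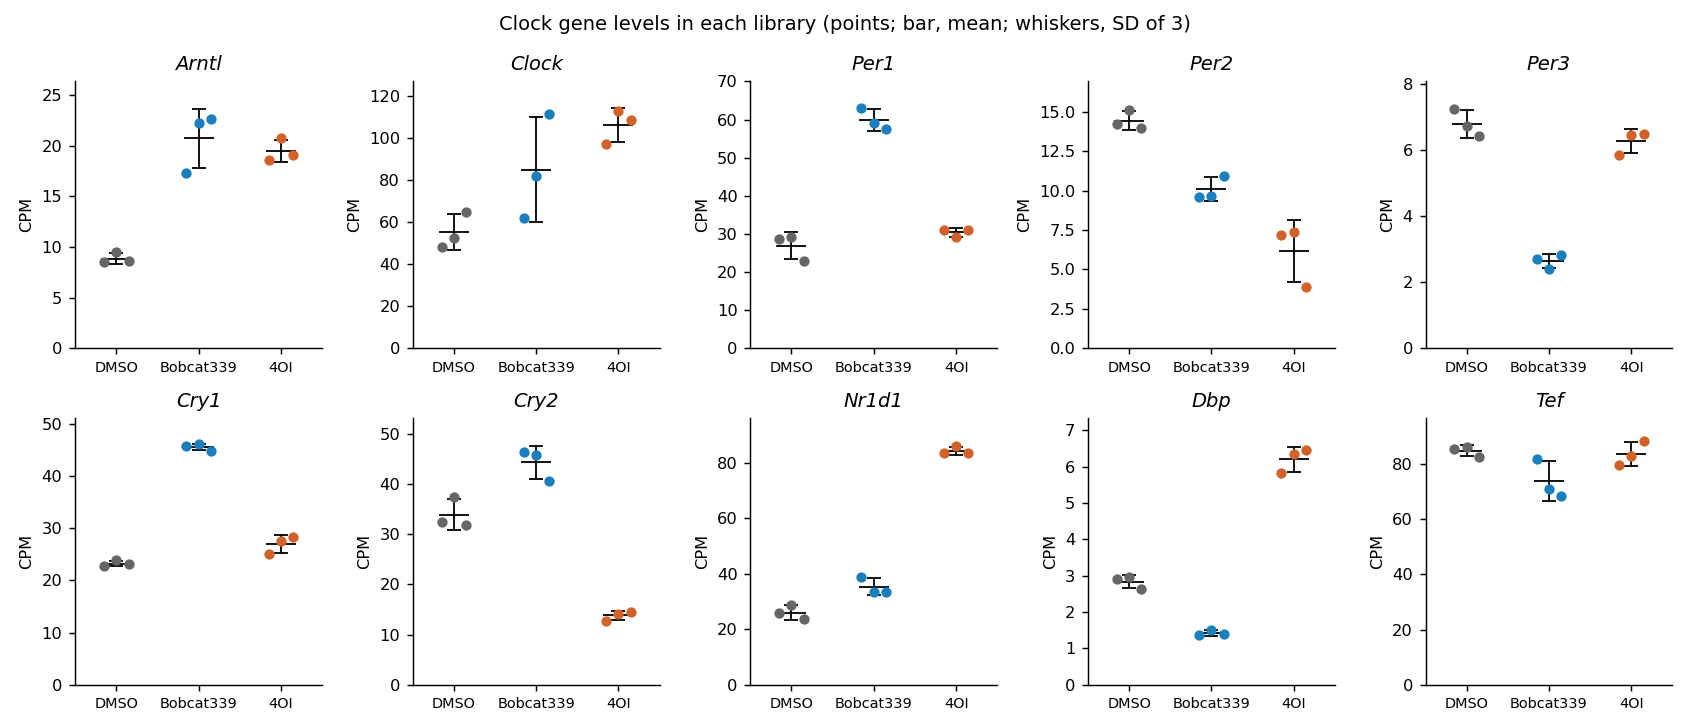
Level in CPM (vertical axis, from 0) of each of the 10 clock genes in the 3 libraries of each group, with the mean as a bar and the SD as whiskers. Per1 and Cry1 stood high only in Bobcat339 libraries, Nr1d1 and Dbp were highest in 4OI libraries, Arntl was high in both, and Per3 and Dbp were lowest with Bobcat339.

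Set against DMSO, Bobcat339 shows how clock genes stood in hepatocytes given a TET inhibitor. Of the 10 clock genes 6 were higher (Arntl, Clock, Per1, Cry1, Cry2 and Nr1d1), 2 were lower (Per3 and Dbp) and Per2 and Tef did not pass. Over all 18379 genes 20.7% were called, 11.6% higher and 9.06% lower, and the higher share of these calls was 56.2%, or 46.1% with RLE scaling (1708 higher, 2000 lower). The median log2 fold change of the 10 was 0.42 against -0.01 over all genes, and the median absolute value 0.80 against 0.33. Of the 10, Clock alone had libraries that overlapped between groups, and over all genes 36.9% had none that did. With DESeq2 all 10 passed, and with RLE scaling 6.

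With 4OI against DMSO, 5 were higher (Arntl, Clock, Cry1, Nr1d1 and Dbp), 2 were lower (Per2 and Cry2) and 3 did not pass (Per1, Per3 and Tef), where 63.7% of all genes were called, 33.3% higher and 30.4% lower. Per1, Per3 and Tef were also the 3 whose libraries overlapped between these groups, and 71.5% of all genes did not overlap. The share of members called was thus near the background. Their median log2 fold change was 0.19 against 0.08 over all genes, and the median absolute value 1.04 against 0.95. Between the compounds, 4OI cells had 3 of the 10 higher (Per3, Nr1d1 and Dbp) and 4 lower (Per1, Per2, Cry1 and Cry2) than Bobcat339 cells, where 62.2% of all genes were called, 30.9% higher and 31.3% lower. Here the libraries of Arntl, Clock and Tef overlapped, and 68.9% of all genes did not. Both treatments were set against the same 3 DMSO libraries, so the first and second comparisons are not independent.

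**Figure D2:**
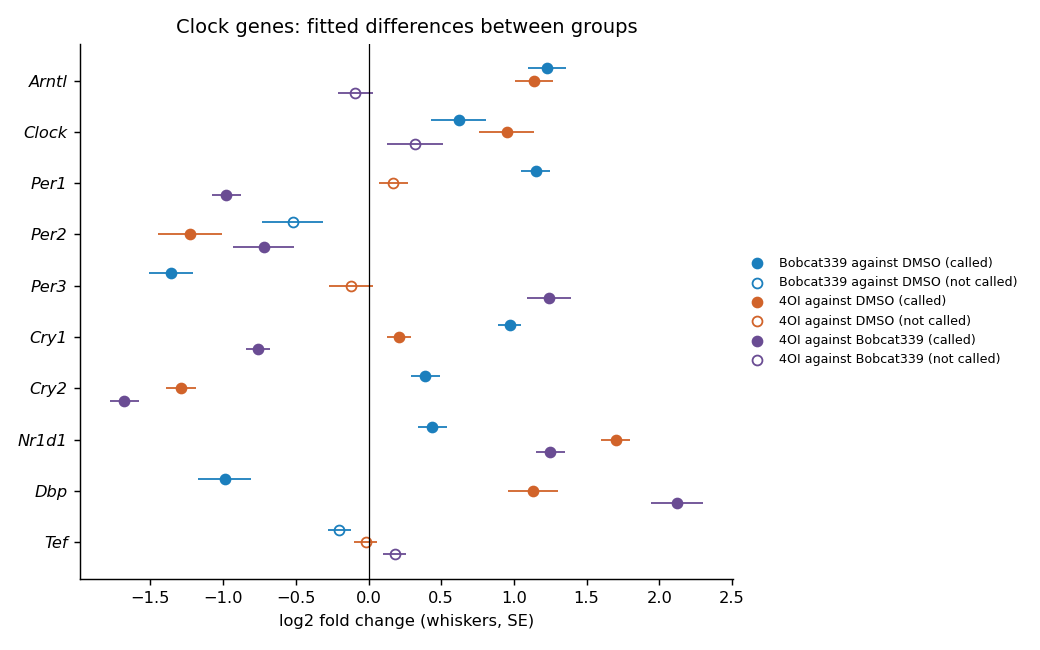
Fitted log2 fold change of each clock gene (horizontal axis, whiskers 1 SE) for Bobcat339 against DMSO, 4OI against DMSO and 4OI against Bobcat339, with filled points for genes called at an adjusted p under 0.05. Dbp lay below 0 for Bobcat339 and above 0 for 4OI, Cry2 the other way round, and Arntl above 0 for both.

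Among the activators, Arntl, the DNA-binding partner without which the clock stops, rose with both compounds. Its level was 8.53, 9.47 and 8.57 CPM in the DMSO libraries, 17.3, 22.2 and 22.7 with Bobcat339, and 18.6, 20.7 and 19.1 with 4OI. Every treated library lay above every DMSO library, and the treated groups overlapped. The rise was 2.34-fold with Bobcat339 (log2 1.23, SE 0.13, edgeR quasi-likelihood adjusted p = 1.1e-04) and 2.20-fold with 4OI (log2 1.14, SE 0.13, adjusted p = 1.5e-05). The compounds differed by -0.09 on the log2 scale (SE 0.12, adjusted p = 0.554), a difference whose sign varied with the setting (-0.21 to 0.03 over 18 alternatives). Without Bobcat339 replicate 1, the lowest of its group, the Bobcat339 change was 1.34 (adjusted p = 5.4e-05).

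Clock, the acetyltransferase partner of ARNTL, had 48.4, 52.3 and 65.0 CPM with DMSO, 62.0, 81.8 and 111 with Bobcat339 and 97.3, 113 and 109 with 4OI. The 4OI libraries lay above all DMSO libraries, while the Bobcat339 group ran from within the DMSO range to within the 4OI range. Clock rose 1.93-fold with 4OI (log2 0.95, SE 0.19, adjusted p = 0.00119). The Bobcat339 call (log2 0.62, SE 0.19, adjusted p = 0.0393) was lost in 11 of 18 alternatives, and its size ran from 0.38 without Bobcat339 replicate 3 (adjusted p = 0.116) to 0.81 without Bobcat339 replicate 1 (0.00471). The highest adjusted p over the 18 was 0.151, without DMSO replicate 1. The difference between the compounds did not pass (log2 0.32, SE 0.19, adjusted p = 0.158), but did without Bobcat339 replicate 3 (log2 0.52, adjusted p = 0.0129).

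Clock was highest in replicate 3 of both the DMSO and the Bobcat339 group, as were the long transcripts as a class. Its longest transcript, of 9744 bases, lay at the 97th percentile of length. The median deviation from the group mean of the 2048 genes with the longest transcripts minus that of the 2048 with the shortest was 0.16 in DMSO replicate 3 and 0.27 in Bobcat339 replicate 3 (log2 scale), against -0.25 in Bobcat339 replicate 1, and from -0.10 to 0.07 in the 4OI libraries. Leaving out replicate 3 of both groups, a choice made after seeing the data, gave a Clock change of 0.51 with Bobcat339 (adjusted p = 0.0289). The part of transcript length in the spread of Clock was not tested further.

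The 3 Period genes, whose proteins carry the Cryptochromes into the nucleus, parted from each other. Per1, which responds within the hour to cAMP, serum and glucocorticoid signals, had 28.7, 29.2 and 22.9 CPM with DMSO, 62.9, 59.2 and 57.4 with Bobcat339 and 30.9, 29.1 and 31.0 with 4OI. The Bobcat339 libraries stood clear of all others, and the DMSO and 4OI libraries overlapped. Per1 rose 2.22-fold with Bobcat339 (log2 1.15, SE 0.10, adjusted p = 4.2e-05) and did not pass with 4OI (log2 0.17, SE 0.10, adjusted p = 0.165, 0.0421 with library size only). It was 1.97-fold lower with 4OI than with Bobcat339 (log2 -0.98, SE 0.10, adjusted p = 1.0e-05).

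Per3 moved the opposite way. It had 7.24, 6.71 and 6.41 CPM with DMSO, 2.69, 2.41 and 2.83 with Bobcat339 and 5.85, 6.46 and 6.47 with 4OI. All Bobcat339 libraries lay under all others, while DMSO and 4OI overlapped. Per3 fell 2.57-fold with Bobcat339 (log2 -1.36, SE 0.15, adjusted p = 2.0e-04), on 47 to 56 read pairs per library against 107 to 122 with DMSO. Its change with 4OI was -0.12 (SE 0.15, adjusted p = 0.520), and it was 2.37-fold higher with 4OI than with Bobcat339 (log2 1.24, SE 0.15, adjusted p = 3.7e-05).

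Per2, whose loss in mice disturbs the behavioural rhythm, went from 14.2, 15.1 and 14.0 CPM with DMSO to 9.62, 9.68 and 11.0 with Bobcat339 and 7.18, 7.37 and 3.87 with 4OI. No libraries overlapped between the 3 groups, and 4OI replicate 3 was the lowest. It fell 2.35-fold with 4OI (log2 -1.23, SE 0.22, adjusted p = 4.7e-04) and was lower with 4OI than with Bobcat339 (log2 -0.72, SE 0.21, adjusted p = 0.0134). The Bobcat339 difference of -0.52 (SE 0.21) did not pass by edgeR (adjusted p = 0.118). It did pass with DESeq2 (0.0415), in a fit of the 6 libraries alone (0.0135) and without 4OI replicate 3 (0.0121).

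Both Cryptochromes, the strongest repressors of the ARNTL and CLOCK dimer, rose with Bobcat339, and with 4OI they separated. Cry1 had 22.8, 23.8 and 23.1 CPM with DMSO, 45.7, 46.1 and 44.8 with Bobcat339 and 25.0, 27.5 and 28.3 with 4OI. The replicates were tight and no groups overlapped. Cry1 rose 1.96-fold with Bobcat339 (log2 0.97, SE 0.08, adjusted p = 2.8e-05) and was lower with 4OI than with Bobcat339 (log2 -0.76, SE 0.08, adjusted p = 1.2e-05). Its 1.16-fold rise with 4OI over DMSO (log2 0.21, SE 0.08, adjusted p = 0.0401) was lost in 13 of 18 alternatives, at adjusted p up to 0.267.

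Cry2 had 32.4, 37.4 and 31.8 CPM with DMSO, 46.4, 45.8 and 40.5 with Bobcat339 and 12.8, 14.1 and 14.5 with 4OI. The 4OI libraries lay far under both other groups, which were themselves apart. Cry2 fell 2.45-fold with 4OI (log2 -1.29, SE 0.10, adjusted p = 1.0e-06) and was 3.20-fold lower with 4OI than with Bobcat339 (log2 -1.68, SE 0.10, adjusted p = 1.2e-07). Its 1.31-fold rise with Bobcat339 (log2 0.39, SE 0.10, adjusted p = 0.0206) was lost in 5 of 18 alternatives. These were RLE scaling (adjusted p = 0.0567) and fits that left out DMSO replicate 1 (0.0912) or 3 (0.0532) or Bobcat339 replicate 1 (0.0542) or 2 (0.0866).

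Nr1d1, the repressor of Arntl, rose with both compounds. It had 25.7, 28.7 and 23.6 CPM with DMSO, 39.0, 33.5 and 33.6 with Bobcat339 and 83.7, 86.0 and 83.4 with 4OI, with no overlap between groups. The rise was 1.36-fold with Bobcat339 (log2 0.44, SE 0.10, adjusted p = 0.00833) and 3.24-fold with 4OI (log2 1.70, SE 0.10, adjusted p = 6.8e-08), and the compounds differed by 1.25 (SE 0.10, adjusted p = 7.4e-07). Arntl, its target, was thus higher beside a higher Nr1d1 in both treatments. Nr1d1 shares 263 exon bases, 8.5% of its exons, with Thra on the other strand, and whether the counting used strand is not stated. Thra, which codes for a thyroid hormone receptor and is named for its position, had 3.92 to 4.73 CPM with DMSO, 3.12 to 3.96 with Bobcat339 and 9.95 to 11.6 with 4OI. Thra was under Nr1d1 in every library, and its part in the Nr1d1 counts was not tested.

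The output factors of the PAR bZIP family did not move together. Dbp, a direct target of ARNTL and CLOCK with a deep daily rhythm in liver, had 2.90, 2.97 and 2.64 CPM with DMSO, 1.38, 1.52 and 1.39 with Bobcat339 and 5.82, 6.34 and 6.46 with 4OI. The groups did not overlap. Dbp fell 1.98-fold with Bobcat339 (log2 -0.99, SE 0.18, adjusted p = 0.00286), rose 2.19-fold with 4OI (log2 1.13, SE 0.17, adjusted p = 1.8e-04) and was 4.34-fold higher with 4OI than with Bobcat339 (log2 2.12, SE 0.18, adjusted p = 1.6e-06). The values rest on few reads, 44 to 50 read pairs per library with DMSO, 27 to 30 with Bobcat339 and 116 to 142 with 4OI. Dbp shares 539 exon bases (18.0%) with Sphk2 on the other strand. Sphk2, a sphingosine kinase gene named for its position, had 32.1 to 39.3 CPM with DMSO, 32.8 to 38.2 with Bobcat339 and 50.7 to 52.6 with 4OI, so that it was above Dbp in every library, and its part in the Dbp counts was not tested.

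Tef, of the same family, had 85.3, 86.2 and 82.4 CPM with DMSO, 81.8, 71.0 and 68.4 with Bobcat339 and 79.7, 82.6 and 88.4 with 4OI. The Bobcat339 libraries lay just under those with DMSO, and the DMSO and 4OI libraries overlapped. None of the 3 comparisons passed. The differences were -0.20 (SE 0.08, adjusted p = 0.132), -0.02 (SE 0.08, adjusted p = 0.863) and 0.18 (SE 0.08, adjusted p = 0.0850), in the order used above. The Bobcat339 difference passed with DESeq2 (adjusted p = 0.0492) and without Bobcat339 replicate 1 (0.0314), and the sign of the 4OI difference varied with the setting (-0.12 to 0.07).

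Ratios of a pair of clock genes inside a library do not depend on how libraries are scaled. They can still move with the mix of cells, whose markers differed between the groups, and the part of that mix was not tested. Each ratio restates levels given above. The log2 ratio of Arntl to its repressor Nr1d1 was -1.59, -1.60 and -1.46 with DMSO, -1.17, -0.59 and -0.57 with Bobcat339 and -2.17, -2.05 and -2.12 with 4OI. It was higher by 0.77 with Bobcat339 and differed by -0.56 with 4OI, although Arntl itself rose by a like amount in both. The log2 ratio of Arntl to its target Dbp was 1.56, 1.67 and 1.70 with DMSO, 3.65, 3.87 and 4.03 with Bobcat339 and 1.68, 1.71 and 1.57 with 4OI. With Bobcat339 it was 2.21 higher, while with 4OI the mean differed from DMSO by 0.01 and the libraries overlapped (exact permutation, two-sided p = 0.7).

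With Bobcat339 the ratio of Per1 to Per3 shifted more than the other two, and with 4OI less than Arntl to Nr1d1. On the log2 scale it was 1.99, 2.12 and 1.83 with DMSO, 4.55, 4.62 and 4.34 with Bobcat339 and 2.40, 2.17 and 2.26 with 4OI. It was 2.52 higher with Bobcat339 and 0.30 higher with 4OI than with DMSO. For each ratio and pair of groups other than Arntl to Dbp with 4OI against DMSO, the libraries did not overlap and the exact permutation p was 0.1 (two-sided), the smallest that 3 against 3 allows. Comparisons of this size therefore cannot reach 0.05.

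**Figure D3:**
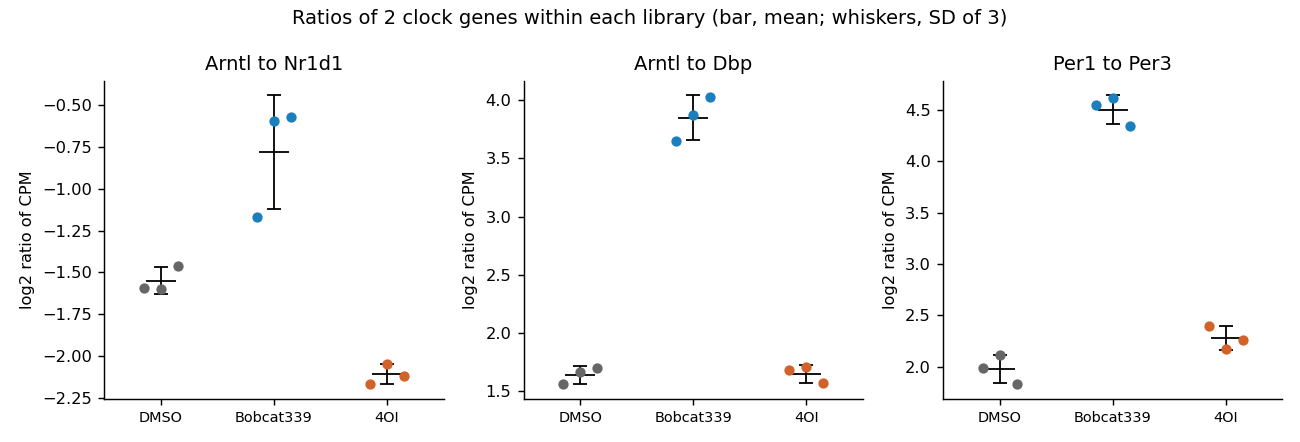
Log2 ratio of CPM (vertical axis) of Arntl to Nr1d1, Arntl to Dbp and Per1 to Per3 within each library, with the mean of 3 as a bar and the SD as whiskers. The Bobcat339 libraries stand above both other groups in all 3 ratios, and for Arntl to Dbp the DMSO and 4OI libraries lie together.

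The clock genes sit among other transcription factors and repressors of the loops, of which 11 are described here, all of them tested. With Bobcat339 4 were higher (Nr1d2, Rora, Bhlhe41 and Nfil3), 2 lower (Cipc and Timeless) and 5 not called, with a median log2 of 0.43. With 4OI 3 were higher (Nr1d2, Bhlhe41 and Ciart) and 8 lower, with a median of -1.21, beside the fall of the summed hepatocyte markers to 1799 to 1981 CPM. Against Bobcat339, 4OI had 2 higher (Nr1d2 and Timeless), 7 lower and 2 not called, with a median of -1.45. The Timeless call there (log2 0.46, adjusted p = 0.028) was lost in several alternatives, for example without Bobcat339 replicate 3 (0.112). The same comparisons called 20.7%, 63.7% and 62.2% of all genes.

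Nr1d2, the partner receptor of Nr1d1, was higher in the same order as Nr1d1. It had 62.9, 63.4 and 78.8 CPM with DMSO, 74.2, 95.0 and 116 with Bobcat339 and 155, 154 and 161 with 4OI. It rose 2.29-fold with 4OI (log2 1.19, SE 0.15, adjusted p = 3.7e-05). The Bobcat339 libraries overlapped those with DMSO, and the call there (log2 0.47, adjusted p = 0.0443) was lost in many alternatives, for example without Bobcat339 replicate 3 (log2 0.31, adjusted p = 0.138).

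Rora, a nuclear receptor that activates Arntl from the sites NR1D1 represses, rose with Bobcat339 and fell with 4OI. It had 25.3, 28.2 and 32.8 CPM with DMSO, 34.7, 39.3 and 53.2 with Bobcat339 and 14.3, 16.1 and 16.1 with 4OI, with no overlap. The rise was 0.56 on the log2 scale with Bobcat339 (SE 0.16, adjusted p = 0.0295), a call that failed when DMSO replicate 1 (0.125) or 2 (0.0954) or Bobcat339 replicate 2 (0.0569) or 3 (log2 0.36, 0.0874) was left out. With 4OI Rora fell by 0.89 (SE 0.16, adjusted p = 5.7e-04).

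Nfil3, a bZIP repressor that competes with DBP and TEF for D-boxes, moved opposite to Dbp in both treatments. It had 59.9, 58.9 and 52.6 CPM with DMSO, 122, 111 and 96.9 with Bobcat339 and 22.9, 22.8 and 22.1 with 4OI, and no groups overlapped. It rose 1.93-fold with Bobcat339 (log2 0.95, SE 0.10, adjusted p = 9.3e-05) and fell 2.53-fold with 4OI (log2 -1.34, SE 0.10, adjusted p = 4.7e-07). Hlf, the other PAR bZIP factor, had 5.65 to 6.25 CPM with DMSO and 5.66 to 6.51 with Bobcat339, and fell to 1.72 to 2.70 with 4OI (log2 -1.43, SE 0.19, adjusted p = 7.2e-05). With 4OI, of the 3 PAR bZIP genes Dbp was higher, Hlf was lower and Tef was not called.

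Bhlhe40 and Bhlhe41 (DEC1 and DEC2), which compete with ARNTL and CLOCK for E-boxes, also parted. Bhlhe40 had 194 to 219 CPM with DMSO and 202 to 213 with Bobcat339 (log2 0.01, SE 0.07, adjusted p = 0.942), and 49.3 to 51.2 with 4OI, a 4.12-fold fall (log2 -2.04, SE 0.07, adjusted p = 1.5e-09). Bhlhe41 had 5.02 to 6.39 CPM with DMSO, 9.23 to 11.6 with Bobcat339, a rise (log2 0.77, SE 0.19, adjusted p = 0.0142, 0.0537 without Bobcat339 replicate 3), and 10.5 to 15.7 with 4OI, also a rise (log2 1.07, SE 0.19, adjusted p = 4.8e-04).

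Arntl2 and Npas2, the closest relatives of Arntl and Clock, were lower with 4OI, where Arntl and Clock were higher. Arntl2 had 7.39, 7.52 and 7.49 CPM with DMSO, 5.18, 3.96 and 4.90 with Bobcat339 and 0.352, 0.0537 and 0.273 with 4OI. Npas2 had 0.981, 0.567 and 1.00 CPM with DMSO, 1.20, 1.17 and 1.06 with Bobcat339 and 0.101, 0.0940 and 0.0683 with 4OI. Both were called lower with 4OI (adjusted p = 2.5e-06 and 7.0e-05), with so few reads in 4OI libraries, 3 read pairs being worth 0.143 to 0.169 CPM, that no fold is given. With Bobcat339 neither passed. The difference was -0.67 on the log2 scale for Arntl2 (SE 0.36, adjusted p = 0.235, and 0.0149 with the 6 libraries alone). For Npas2 it was 0.43 (SE 0.38, adjusted p = 0.507).

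Cipc, a repressor of CLOCK, had 83.7 to 89.7 CPM with DMSO, 65.3 to 70.7 with Bobcat339 (log2 -0.35, SE 0.07, adjusted p = 0.0067) and 50.8 to 55.0 with 4OI (log2 -0.73, SE 0.07, adjusted p = 5.7e-06). Ciart, a repressor that binds ARNTL, had 4.61 to 6.21, 6.15 to 9.46 and 6.89 to 8.72 CPM. It was called higher with 4OI (log2 0.65, SE 0.20, adjusted p = 0.0163), a call lost in several alternatives, for example without DMSO replicate 2 (0.0639). It was not called with Bobcat339 (log2 0.55, adjusted p = 0.0847), but passed there with replicate number as a block (0.035). Timeless, in mammals better known for a role at replication forks, had 13.5 to 16.2 CPM with DMSO, 4.40 to 4.94 with Bobcat339 (log2 -1.67, SE 0.16, adjusted p = 7.2e-05) and 5.12 to 7.46 with 4OI (log2 -1.21, SE 0.16, adjusted p = 6.2e-05).

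**Figure D4:**
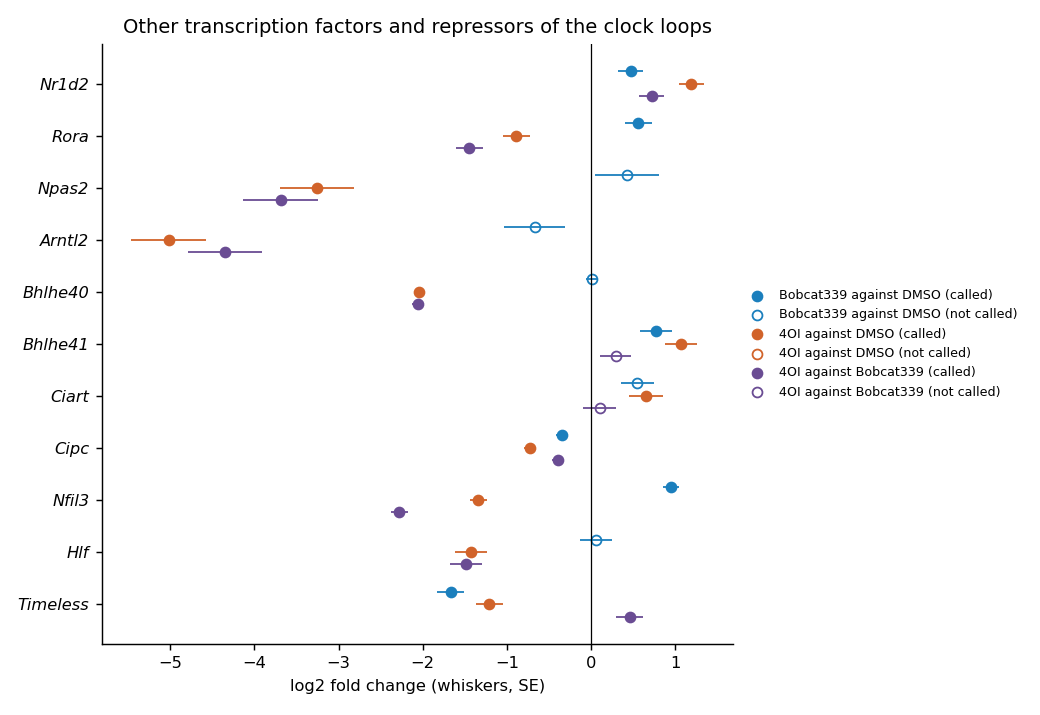
Fitted log2 fold change (horizontal axis, whiskers 1 SE) of 11 other clock loop genes in the 3 comparisons, filled where called at an adjusted p under 0.05. The points for 4OI against DMSO lie left of 0 for 8 of 11 genes and furthest left for Arntl2, where the 4OI levels are 0.0537 to 0.352 CPM, while those for Bobcat339 lie on both sides.

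Of 13 genes for kinases, ubiquitin ligase parts and corepressors that act on clock proteins, 5 were higher, 1 lower and 7 not called with Bobcat339, and 6 higher, 5 lower and 2 not called with 4OI, where 20.7% and 63.7% of all genes were called. Sirt1, a deacetylase of ARNTL and PER2, rose with both compounds. It had 15.4 to 19.7 CPM with DMSO, 30.4 to 43.0 with Bobcat339 (log2 1.07, SE 0.14, adjusted p = 4.9e-04) and 58.2 to 60.3 with 4OI (log2 1.8, SE 0.14, adjusted p = 9.6e-07). Csnk1e, a kinase that marks PER proteins for decay, had 23.2 to 28.2 CPM with DMSO and 91.2 to 102 with 4OI, a 3.77-fold rise (adjusted p = 1.7e-08). Its rise of 0.38 with Bobcat339 (adjusted p = 0.0143) was lost without DMSO replicate 1 (0.0658) or Bobcat339 replicate 2 (0.0578). Csnk1d, another kinase of this list, had 156 to 183 CPM with DMSO, more than Csnk1e. It passed neither with Bobcat339 (adjusted p = 0.277) nor with 4OI (0.169, 0.0275 with library size only).

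Fbxw11, a ubiquitin ligase part that takes up phosphorylated PER, had 151 to 160 CPM with DMSO and 260 to 270 with Bobcat339, a 1.69-fold rise (log2 0.75, SE 0.07, adjusted p = 3.0e-05). With 4OI it had 129 to 138 CPM, a small fall (log2 -0.22, adjusted p = 0.0115, 0.0914 with library size only). Btrc, another ubiquitin ligase part, was lower with Bobcat339 (log2 -0.39, adjusted p = 0.0174) and with 4OI (log2 -0.38, adjusted p = 0.00566). The Bobcat339 call of Btrc was lost in some alternatives, for example without DMSO replicate 1 (0.0858). Gsk3b, a kinase of several clock proteins, rose 1.31-fold and 1.86-fold with Bobcat339 and 4OI (adjusted p = 0.00873 and 5.0e-06). Prkaa2, an AMPK catalytic subunit that acts on CRY1, was 77.7 to 90.6 CPM with DMSO and 71.8 to 97.7 with Bobcat339. With 4OI it was 3.52 to 5.98, 16.8-fold lower (adjusted p = 1.6e-08), beside the lower hepatocyte markers of these libraries. Prkaa1, the other AMPK catalytic subunit, had 47.6 to 54.7 CPM with DMSO and 89.2 to 99.9 with 4OI, 1.89-fold higher (adjusted p = 1.0e-05). It did not pass with Bobcat339 (adjusted p = 0.0732). Hdac3, the deacetylase that NR1D1 recruits, had 63.1 to 77.5 CPM with DMSO and 34.9 to 36.1 with 4OI, a 2.04-fold fall (adjusted p = 4.1e-06).

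Rhythmic output genes of the liver clock were 13 in the list, of which 12 were tested and the bile acid gene Cyp7a1 was under the filter. With Bobcat339 3 were higher, 0 lower and 9 not called, and with 4OI 2 were higher, 8 lower and 2 not called, where 20.7% and 63.7% of all genes were called. The share called with Bobcat339 was thus near that of all genes, and the 8 lower with 4OI stand beside summed hepatocyte markers of 1799 to 1981 CPM, against 29932 to 31003 with DMSO. Noct, a phosphatase with a night peak in mouse liver, had 48.0 to 54.6 CPM with DMSO, 64.9 to 85.2 with Bobcat339 (log2 0.62, SE 0.12, adjusted p = 0.00388) and 16.3 to 19.3 with 4OI (log2 -1.53, SE 0.12, adjusted p = 8.9e-07). Lpin1, a phosphatidate phosphatase, likewise rose by 0.66 with Bobcat339 (SE 0.11, adjusted p = 0.00167) and fell by 1.24 with 4OI (SE 0.11, adjusted p = 2.4e-06). Por, the electron donor of cytochrome P450 enzymes, rose 1.32-fold with Bobcat339 (adjusted p = 0.0179, 0.0547 with RLE scaling).

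Nampt, the rate-limiting enzyme of NAD salvage and an E-box target, rose 4.60-fold with 4OI. It had 87.7, 83.2 and 123 CPM with DMSO, 113, 137 and 159 with Bobcat339 and 444, 466 and 444 with 4OI (log2 2.20, SE 0.16, adjusted p = 5.2e-07). The same 4OI libraries had higher summed macrophage and endothelial markers than DMSO, and the part of these in the Nampt rise was not tested. The Bobcat339 libraries overlapped those with DMSO, and the difference there (log2 0.48, SE 0.16) did not pass (adjusted p = 0.0556). It did pass in several alternatives, among them DESeq2 (0.0204) and fits without DMSO replicate 3 (log2 0.67, 0.00515) or Bobcat339 replicate 1 (log2 0.59, 0.0198). Insig2 and Gys2, genes of sterol sensing and of glycogen synthesis in liver, fell 5.27-fold and 14.4-fold with 4OI (adjusted p = 3.9e-09 and 4.2e-08), beside the lower hepatocyte markers of these libraries, and neither passed with Bobcat339 (adjusted p = 0.309 and 0.164).

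Of 13 genes of the cAMP, serum and glucocorticoid inputs that act on Per1 and Per2, 6 were higher, 1 lower and 6 not called with Bobcat339, and 10 higher, 2 lower and 1 not called with 4OI, where 20.7% and 63.7% of all genes were called. The same 4OI libraries had summed macrophage markers of 4680 to 4871 CPM against 576 to 653 with DMSO, and summed endothelial markers of 3317 to 3484 against 115 to 128. Egr1, an immediate early gene of the serum response, was, like Per1, highest with Bobcat339. It had 50.9, 49.1 and 41.5 CPM with DMSO, 139, 127 and 130 with Bobcat339 and 38.4, 35.5 and 36.2 with 4OI, a 2.80-fold rise with Bobcat339 (log2 1.48, SE 0.09, adjusted p = 4.0e-06) and a fall with 4OI (log2 -0.36, SE 0.09, adjusted p = 0.00466). Crem, a factor of the cAMP response, rose with both compounds (log2 0.84 and 0.79, SE 0.14 each, adjusted p = 0.00184 and 4.9e-04).

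Glucocorticoid-responsive genes went different ways with Bobcat339. Fkbp5, which codes for a chaperone partner of the glucocorticoid receptor, had 45.4 to 51.1 CPM with DMSO and 33.0 to 33.3 with Bobcat339, a fall (log2 -0.51, SE 0.08, adjusted p = 0.00107), while the kinase gene Sgk1 had 16.2 to 19.7 and 27.0 to 29.3 CPM, a rise (log2 0.65, SE 0.09, adjusted p = 6.3e-04). With 4OI Sgk1 rose 6.39-fold to 110 to 120 CPM (log2 2.68, SE 0.09, adjusted p = 1.5e-09) and Tsc22d3 (GILZ) 2.73-fold (adjusted p = 1.4e-06). The cAMP factor Creb1 and the immediate early gene Fos rose 2.79-fold and 2.34-fold with 4OI (adjusted p = 1.2e-06 and 7.0e-05), and neither passed with Bobcat339 (adjusted p = 0.438 and 0.183).

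Of 10109 other named genes with a mean of at least 5 CPM, those nearest to Arntl by distance over the pair of log2 fold changes against DMSO were Arid5b (distance 0.022), Fnip1 (0.055) and Stx3 (0.073). Arid5b had changes of 1.21 with Bobcat339 and 1.16 with 4OI, Fnip1 1.24 and 1.19, and Stx3 1.22 and 1.21. Nearest to Dbp of 10110 genes were Lrp1 (0.084, with -0.91 and 1.15), Dock8 (0.162, with -0.83 and 1.18) and Tmem106a (0.167, with -0.84 and 1.20). The likeness is over 3 group means and describes these libraries. Of the 8 macrophage markers, 7 were also lower with Bobcat339 and all 8 higher with 4OI, the signs of Dbp. Over all genes 9.06% were called lower with Bobcat339 and 33.3% higher with 4OI. The 8 hepatocyte markers were all lower with 4OI, as were 30.4% of all genes. The part of the cell mix in the Dbp values was not tested.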

How the data were processed

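RNA of primary mouse hepatocytes was measured in 9 libraries. The authors deposited 1 table of 56691 genes, and per the labels CASAVA 1.8, HISAT2 2.0.5 and featureCounts 1.5.0-p3 were used, with settings, build and annotation not given in the sources used. The deposited values were taken to be expected counts (estimated counts in whole numbers, unscaled). Of values from 4 to 40, 43.7% to 45.6% per library were multiples of 4. On that ground about 4 counts were assumed to be 1 read pair, though most of these values were not multiples of 4. Numbers of read pairs given here rest on that assumption. Symbols were matched for 52073 genes (91.9%) by Ensembl identifier. Exon lengths and overlaps came from GENCODE M21.

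The test was that of edgeR 4.0.16, run in R 4.3.3 (TMM, filterByExpr, 1 quasi-likelihood fit over 9 libraries, two-sided, Benjamini-Hochberg adjustment over 18379 genes, called under 0.05). CPM were computed from these counts after TMM scaling. Within-library ratios were compared by exact permutation (SciPy 1.17.1 in Python 3.11.15), and figures drawn with matplotlib 3.10.9. Alternatives were RLE scaling, library size only, DESeq2 1.42.0, no filter, 1 CPM in 3 libraries, a fit of 6 libraries, replicate number as a block, values divided by 4, 1 CPM added to ratios, and each library left out. The method was tested on simulated data. No pair of replicates agreed within sampling noise. The floor is 3 read pairs (12 counts), and such limits cover counting error only.

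The named genes are the 10 clock genes, 11 loop genes (1 further gene of that list is not reported here), up to 4 called genes with the smallest adjusted p from each other clock list in each comparison, and the 3 genes nearest to Arntl and to Dbp. Krt19, Epcam, Thra, Sphk2, Cyp7a1, Prkaa1, Csnk1d and Btrc were named outside this rule. Members and lists were chosen with earlier results of these data known.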

Additional observations from a re-analysis of the deposited data

How the results depend on the processing

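Of the 22 calls among the 30 fold changes of clock genes, 19 were kept under each of 18 alternatives, and no called clock gene changed direction. The 3 lost in some are Cry2 and Clock with Bobcat339 and Cry1 with 4OI, with values in the report. With 1 CPM added, the log2 ratio of Arntl to Dbp differed from DMSO by 1.79 with Bobcat339 and 0.15 with 4OI, and by -1.65 between 4OI and Bobcat339, while Per1 to Per3 gave 2.23 and -1.95 for Bobcat339 against DMSO and 4OI against Bobcat339. With Bobcat339 Dbp had 1.38 to 1.52 CPM and Per3 2.41 to 2.83 CPM, levels to which 1 CPM is a large addition. The sizes of these ratio shifts thus depend on low levels, and nothing further was tested.

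Leaving out 1 library at a time gave 6 to 8 clock genes called with Bobcat339, 6 to 7 with 4OI and 7 to 8 between the compounds. Over all genes, 3802 were called with Bobcat339, and 2426 to 4115 with a library left out (2426 without DMSO replicate 1, 2485 without Bobcat339 replicate 2). For 4OI the ranges were 10717 to 11983 against DMSO and 10449 to 11636 against Bobcat339. Ratios moved over 0.67 to 0.97, -0.60 to -0.52 and -1.53 to -1.23 for Arntl to Nr1d1, 2.12 to 2.31, -0.04 to 0.05 and -2.30 to -2.11 for Arntl to Dbp, and 2.45 to 2.60, 0.22 to 0.37 and -2.30 to -2.16 for Per1 to Per3, for Bobcat339, 4OI and 4OI against Bobcat339. The duct marker Epcam had a change of -0.69 between 4OI and Bobcat339, and from -1.17 to 1.00 with a library left out, the latter (adjusted p = 0.00597) without Bobcat339 replicate 1, and the cause was not tested.

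With Bobcat339, 56.2% of called genes were higher, against 46.1% with RLE scaling and 47.7% with DESeq2. Library size only moved the median of 4OI against Bobcat339 by 0.12 (log2) and made Tef pass there (adjusted p = 0.00747). Of the 9 same-numbered pairs of libraries, 4 had deviations that correlated above 0.1, up to 0.316 for DMSO and Bobcat339 replicate 3, and the others ran down to -0.0726, so the numbers were not taken to pair the samples. With the replicate block 8, 7 and 8 clock genes and 4080, 11749 and 11394 genes were called for Bobcat339, 4OI and 4OI against Bobcat339, and Clock was the added clock gene (adjusted p = 0.0296). Of the other genes named that the main fit did not call with Bobcat339, Ciart (0.035), Nampt (0.0236), Prkaa1 (0.0228) and Krt19 (0.0368) passed in the fit with the block.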
